A study of Homo sapiens with 4 samples.

Results

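The genes described here encode the mRNA decay machinery, grouped by complex: deadenylation, decapping, 5′-to-3′ exonucleases, the exosome with its Ski helicase, and nonsense-mediated decay. The list holds 48 genes and was drawn up by function. A probe could be named and was detected for 39 of them, of 9021 such genes in the series. Their 41 probes are all the probes that could be tied to them. For 8 genes (CNOT6L, CNOT8, LSM3, LSM5, XRN2, EXOSC3, EXOSC9 and SMG1) the files list a transcript that could not be tied to 1 probe, and CNOT6 was matched to none of the listed transcripts. Those 9 genes have no values per array here.

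The study asked which transcripts differ when TARBP2, a double-stranded RNA-binding protein and partner of DICER1, is raised in the human breast cancer line MDA-231 (MDA-MB-231). There were 2 groups of 2 Illumina BeadChip arrays: cells given the plasmid pCMV-TARBP2, and cells given the plasmid pCMV-GFP. The labels give 1 line for both groups. Cells were harvested at 48 hours of transient expression, with the CMV promoter driving TARBP2 or GFP. The control follows the labels, which give the GFP plasmid, although mock transfection is the term in the series' design text. Nothing in the labels ties the replicates to separate cultures, so the p-values reflect only how far these samples spread, and that spread may be technical.

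Bulk mRNA decay begins when deadenylases shorten the poly(A) tail. The cap is then removed and the body of the message is degraded from its 5′ end by XRN1, or from its 3′ end by the exosome. Nonsense-mediated decay is a quality-control branch that removes messages with a premature stop codon and also sets the level of some normal messages. Small RNA silencing, in which TARBP2 acts with DICER1 upstream, ends in the same deadenylation and decapping enzymes.

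Levels are log2 intensities after background correction and quantile normalization. A gene is said to have risen or fallen on the TARBP2 arrays when its adjusted p in limma was under 0.05 over all 22123 detected probes. Median raw intensity was 74.5 to 75.5 on the TARBP2 arrays and 78.5 to 78.7 on the GFP arrays, and 44.1% to 45.9% of probes were detected on each array. TARBP2 had log2 levels of 15.11 and 15.12 on the TARBP2 arrays, against 7.26 and 6.97 on the GFP arrays, a difference of 8.0 ± 0.12 (SE, n = 2 arrays per group) with an adjusted p of 4.79e-05. The plasmid's gene was thus high on the arrays labelled with it. Another TARBP2 probe had levels of 7.27 and 7.28 on the TARBP2 arrays, against 7.53 and 7.46 on the GFP arrays (adjusted p = 0.0722), and where it lies on the transcript is not known here. All 5 named markers of a mesenchymal-like breast line (CD44, LOX, MSN, TGFBI and ZEB1) were detected, while the hormone receptor genes ESR1 and PGR were not above background on any array. Of these 5, TGFBI rose by 0.65 ± 0.08 and MSN fell by 0.45 ± 0.08 (SE, adjusted p = 0.00426 and 0.0117), and the other 3 did not pass. Markers of other cell types also differed between the groups. The luminal list had 5 of 7 genes detected, with a summed log2 level of 11.53 on both TARBP2 arrays and 11.97 to 12.02 on the GFP arrays. FOXA1, a luminal transcription factor, was not above background on either TARBP2 array and averaged 7.58 on the GFP arrays. KRT19, a keratin, also fell (-1.25, adjusted p = 0.00116), and the keratin KRT8 did not pass (-0.10). CDH1, not above background on the TARBP2 arrays, fell from 5.31 and 5.15 on the GFP arrays to 4.78 and 4.68 (adjusted p = 0.0148). The luminal factor GATA3, not above background on the GFP arrays (4.80 and 4.83), rose to 5.17 and 5.37 (adjusted p = 0.0198). FOXA1, CDH1 and GATA3 met the detection filter only through the group where each was higher, and CDH1 and GATA3 lay near background in both groups. CD14, a leukocyte gene, was detected with log2 levels of 9.21 and 9.27 on the TARBP2 arrays, against 7.43 and 7.13 on the GFP arrays, while PTPRC, CD3E and ITGAM were not above background on any array. Of 3 endothelial genes only PECAM1 was detected on 2 or more arrays, and of 2 lung genes none. PECAM1 had log2 levels of 5.22 and 5.07 on the TARBP2 arrays, against 5.25 and 5.35 on the GFP arrays, and did not pass. In such bulk RNA, fewer cells of a type and less RNA per cell cannot be told apart, and the part of these marker differences in the results on decay genes was not tested. Whether both groups were grown from the same stock of the line cannot be told from these files.

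Of the 39 decay genes, 3 rose and 9 fell on the TARBP2 arrays, and 27 did not pass the test. CNOT4, UPF2 and EXOSC5 rose. PAN2, PARN, CNOT2, EDC3, LSM4, DIS3, EXOSC8, UPF1 and UPF3A fell. The 12 that changed make 30.8% of the genes tested, where 44.8% of all 9021 named genes changed. Both shares depend on the scaling: they were 43.6% and 51.0% on the authors' quantile-normalized values, 46.2% and 51.9% without background correction, and 43.6% and 51.9% with an offset of 50. CNOT7, LSM7, CNOT1, PATL1 and SMG6 passed in addition under each of these 3 settings. The share that rose was 7.69%, against 23.0% of all named genes, and the share that fell was 23.1%, against 21.8%. The median log2 change was -0.08 over the decay genes and -0.0027 over all named genes, and the median size of the change without its sign was 0.19 against 0.28. CNOT4 was the only decay gene that changed at least 2-fold, where 8.05% of named genes did. Of all detected probes, named or not, 40.3% changed, 20.5% upward and 19.8% downward.

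**Figure D1:**
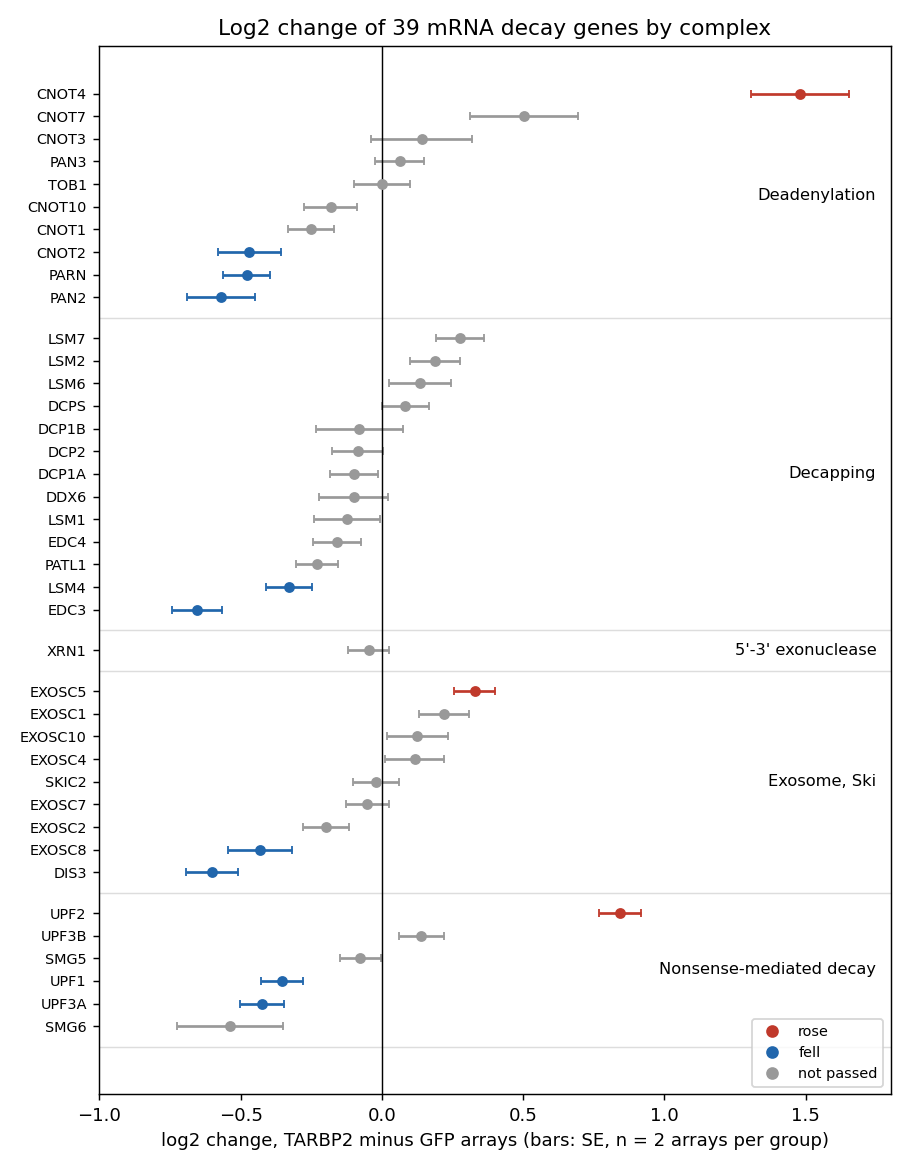
The log2 change of each of 39 decay genes on the TARBP2 minus the GFP arrays is plotted on the horizontal axis, with SE bars (n = 2 arrays per group), by complex. Points are red for genes that rose, blue for genes that fell and grey for genes that did not pass. CNOT4 at 1.48 and UPF2 at 0.84 stand to the right, EDC3 at -0.65 and DIS3 at -0.60 to the left.

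**Figure D2:**
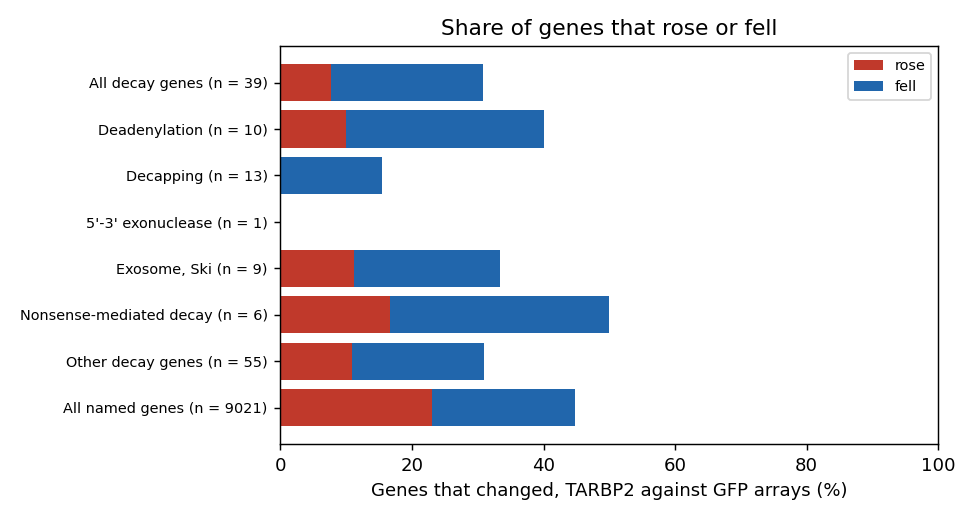
Bars give the percentage of genes that rose (red) and fell (blue) on the TARBP2 arrays in each complex, over all decay genes, over other decay genes and over all 9021 named genes, with the number tested beside each name. All decay genes reach 30.8%, against 44.8% for all named genes.

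Among deadenylation genes, 1 of 10 tested rose and 3 fell (40% changed, where 44.8% of all named genes did). CNOT4, a ubiquitin ligase that associates with the CCR4-NOT deadenylase, had log2 levels of 7.65 and 7.63 on the TARBP2 arrays, against 5.92 and 6.41 on the GFP arrays. Both TARBP2 arrays were high and close together, the GFP arrays were low and further apart, and the groups did not overlap. The log2 change was 1.48 ± 0.17 (SE), or 2.79-fold, with an adjusted p of 0.00434. Its size depends on the scaling: it was 1.06 on the authors' quantile-normalized values, 1.04 without background correction and 1.14 with an offset of 50. CNOT2, a scaffold subunit that joins CNOT3 on CNOT1, had levels of 10.20 and 9.94 on the TARBP2 arrays, against 10.54 on each GFP array. It fell by 0.47 ± 0.11 on the log2 scale (SE, adjusted p = 0.0279), and both TARBP2 arrays were below both GFP arrays.

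PAN2, the catalytic subunit of the PAN2-PAN3 deadenylase, had levels of 7.94 and 7.87 on the TARBP2 arrays, against 8.62 and 8.33 on the GFP arrays. PARN, a poly(A)-specific ribonuclease that also matures small non-coding RNAs, had levels of 9.66 and 9.54 on the TARBP2 arrays, against 10.05 and 10.10 on the GFP arrays. Neither gene's groups overlapped. PAN2 fell by 0.57 ± 0.12 (SE, adjusted p = 0.0205) and PARN by 0.48 ± 0.08 (SE, adjusted p = 0.0118). PAN3, the adaptor that carries PAN2 to its targets, had levels of 9.48 and 9.43 on the TARBP2 arrays, against 9.33 and 9.46 on the GFP arrays. Its groups overlapped, at a log2 change of 0.06 with a 95% interval of -0.16 to 0.28.

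The remaining CCR4-NOT genes of the 10 did not pass. CNOT1, the scaffold of the complex, had levels of 11.61 and 11.52 on the TARBP2 arrays, against 11.78 and 11.85 on the GFP arrays. The groups did not overlap, but the change of -0.25 ± 0.08 (SE) had an adjusted p of 0.0645. CNOT7, a deadenylase subunit, had a log2 change of 0.50 ± 0.19 (SE, adjusted p = 0.0963), larger in size than that of CNOT2 but with a wider error. CNOT3 and CNOT10, non-catalytic subunits, had log2 changes of 0.14 and -0.18. TOB1, an antiproliferative adaptor that brings the deadenylase to poly(A)-binding protein, had a log2 change of 0.0017 with a 95% interval of -0.26 to 0.26.

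**Figure D3:**
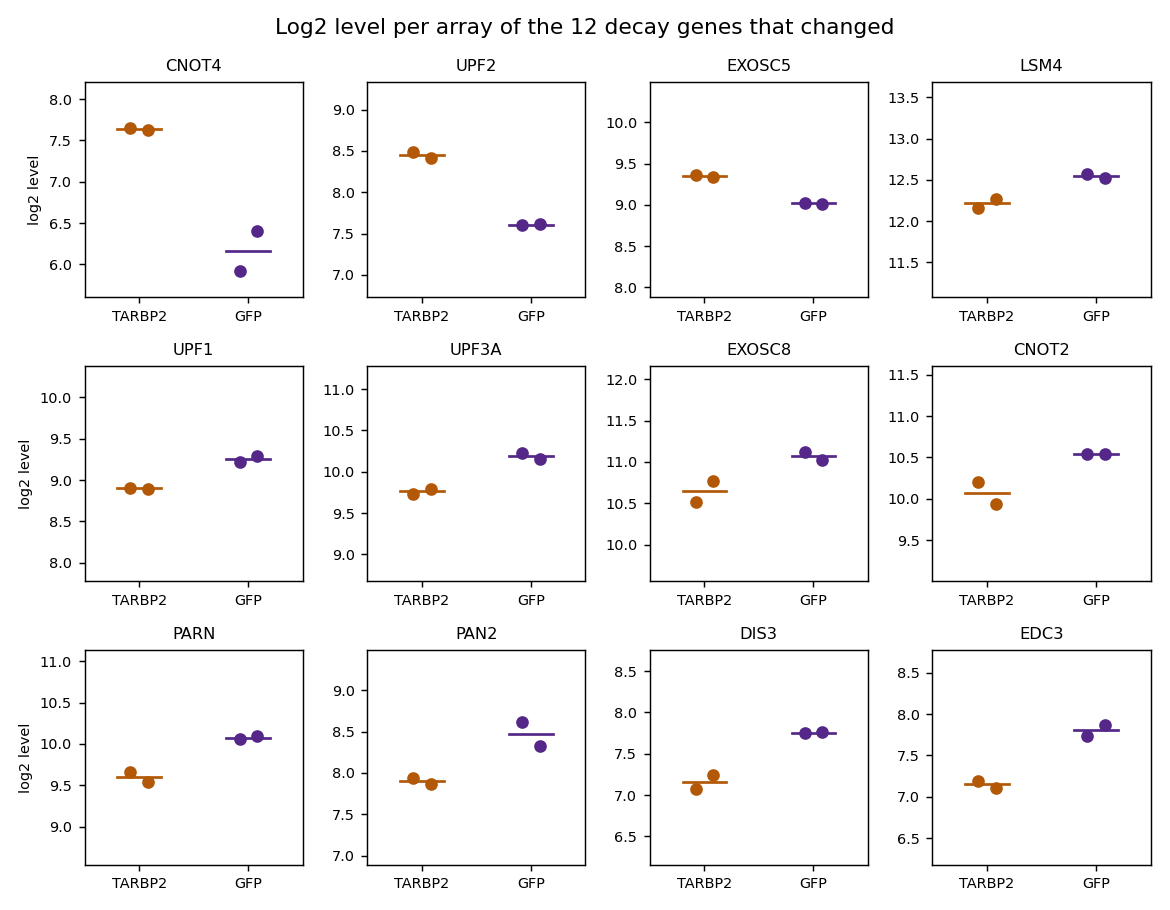
Each panel shows 1 of the 12 decay genes that changed, with the log2 level of the 2 TARBP2 arrays on the left (orange) and the 2 GFP arrays on the right (purple) and lines at the group means. All panels span the same range of log2 units. The groups do not overlap in any panel, and CNOT4, with GFP arrays at 5.92 and 6.41, has the widest spread.

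In decapping, none of 13 genes tested rose and 2 fell (15.4% changed, where 44.8% of all named genes did). This count depends on the setting. LSM7 rose and PATL1 fell in addition on the authors' quantile-normalized values, without background correction and with an offset of 50. The same held with detection on all 4 arrays and with 1 probe per gene. EDC3, an enhancer of decapping that binds DCP2 and DDX6, had log2 levels of 7.19 and 7.11 on the TARBP2 arrays, against 7.73 and 7.87 on the GFP arrays. LSM4, a subunit of the LSM ring that binds shortened tails (and, with LSM8 in place of LSM1, U6 snRNA), had levels of 12.16 and 12.27 on the TARBP2 arrays, against 12.57 and 12.52 on the GFP arrays. In both genes the TARBP2 arrays were the lower ones with no overlap. EDC3 fell by 0.65 ± 0.09 (SE, adjusted p = 0.00636), or 1.57-fold, and LSM4 by 0.33 ± 0.08 (SE, adjusted p = 0.0316).

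The decapping enzyme itself did not pass. DCP2, the catalytic subunit, had a log2 change of -0.09 with a 95% interval of -0.32 to 0.15. Its activators DCP1A and DCP1B had log2 changes of -0.10 and -0.08, and EDC4, the scaffold that joins DCP1 and DCP2, of -0.16. All 5 DCP and EDC genes were on the lower side, as were 24 of all 39 decay genes, and of the 5 EDC3 alone passed. The groups overlapped for DCP2 and for DCP1B, which was detected on only 1 GFP array. PATL1, which bridges the LSM ring and decapping, had a log2 change of -0.23 ± 0.08 (SE, adjusted p = 0.0673), and the helicase DDX6 of -0.10. The scavenger enzyme DCPS, which clears the cap left by 3′ decay, had a log2 change of 0.08.

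Other LSM genes lay on both sides of 0. LSM1, the subunit that marks the cytoplasmic ring, had levels of 12.22 and 12.37 on the TARBP2 arrays, against 12.30 and 12.54 on the GFP arrays. LSM2 had levels of 12.92 and 13.01 on the TARBP2 arrays, against 12.71 and 12.84 on the GFP arrays. The groups overlapped for LSM1 and did not for LSM2, and neither gene passed (adjusted p = 0.445 and 0.152). LSM7 came closest to the threshold, at 0.28 ± 0.08 (SE, adjusted p = 0.0552), and LSM6 had a log2 change of 0.13.

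XRN1, the cytoplasmic 5′-to-3′ exonuclease, had log2 levels of 8.61 and 8.65 on the TARBP2 arrays, against 8.67 and 8.69 on the GFP arrays. The TARBP2 arrays were lower without overlap but by little. The log2 change was -0.05 with a 95% interval of -0.24 to 0.14, and the adjusted p was 0.651.

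Of 9 genes of the exosome and its Ski helicase, 1 rose and 2 fell (33.3% changed, where 44.8% of all named genes did). EXOSC5, a subunit of the ring of the exosome core, had levels of 9.36 and 9.34 on the TARBP2 arrays, against 9.02 and 9.01 on the GFP arrays. EXOSC8, another ring subunit, had levels of 10.52 and 10.77 on the TARBP2 arrays, against 11.12 and 11.03 on the GFP arrays. These neighbours in 1 complex thus moved in opposite directions, each without overlap. EXOSC5 rose by 0.33 ± 0.07 (SE, adjusted p = 0.023) and EXOSC8 fell by 0.43 ± 0.11 (SE, adjusted p = 0.0377).

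DIS3, the catalytic ribonuclease of the nuclear exosome, had levels of 7.07 and 7.24 on the TARBP2 arrays, against 7.75 and 7.77 on the GFP arrays. It fell by 0.60 ± 0.09 (SE, adjusted p = 0.00836), or 1.52-fold, with no overlap. EXOSC10, a further nuclear exonuclease of the complex, had levels of 11.71 and 11.48 on the TARBP2 arrays, against 11.42 and 11.52 on the GFP arrays. Its groups overlapped, at a log2 change of 0.12 with a 95% interval of -0.16 to 0.40. EXOSC1, a cap subunit, had levels of 12.05 and 12.19 on the TARBP2 arrays, against 11.87 and 11.94 on the GFP arrays. The groups did not overlap and the change of 0.22 ± 0.09 (SE) did not pass, at an adjusted p of 0.108. The cap subunit EXOSC2 and the ring subunits EXOSC4 and EXOSC7 had log2 changes of -0.20, 0.12 and -0.05, and SKIC2, the Ski helicase that feeds RNA to the cytoplasmic exosome, of -0.02.

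In nonsense-mediated decay, 1 of 6 genes rose and 2 fell (50% changed, where 44.8% of all named genes did). All 3 are UPF factors, of which 4 were among the 6 tested. UPF2, the bridge between UPF1 and the exon junction complex, had log2 levels of 8.48 and 8.42 on the TARBP2 arrays, against 7.61 on each GFP array. It rose by 0.84 ± 0.07 (SE), or 1.79-fold, with an adjusted p of 0.00211, the smallest among the decay genes. UPF1, the helicase at the centre of the pathway, had levels of 8.91 and 8.90 on the TARBP2 arrays, against 9.22 and 9.29 on the GFP arrays. It fell by 0.35 ± 0.08 (SE, adjusted p = 0.0211). The groups did not overlap for either gene.

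The UPF3 paralogs were each measured by a pair of probes tied to different transcripts. UPF3A, the less active paralog in bridging to exon junctions, had levels of 9.74 and 9.79 on the TARBP2 arrays, against 10.22 and 10.16 on the GFP arrays. Its other probe had 9.20 and 9.18 on the TARBP2 arrays, against 9.66 and 9.48 on the GFP arrays. Both probes were lower without overlap, by 0.42 ± 0.08 and 0.38 ± 0.09 in size (SE, adjusted p = 0.0133 and 0.0316). UPF3B, the paralog encoded on the X chromosome, had levels of 9.71 and 9.81 on the TARBP2 arrays, against 9.60 and 9.64 on the GFP arrays. Its probes had log2 changes of 0.14 and 0.15, neither of which passed (adjusted p = 0.225 and 0.176). SMG5, an adaptor that recruits decay enzymes to phosphorylated UPF1, had levels of 9.47 and 9.45 on the TARBP2 arrays, against 9.54 and 9.53 on the GFP arrays, a log2 change of -0.08 that did not pass. SMG6, the endonuclease of the pathway, was detected on 1 TARBP2 array and both GFP arrays, and its log2 change of -0.54 ± 0.19 (SE) had an adjusted p of 0.0776.

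The TARBP2 and GFP arrays did not overlap for 27 of the 39 decay genes (69.2%), where this held for 76.5% of all named genes. Among the 27 genes that did not pass, log2 changes ran from -0.54 to 0.50, and the 95% interval lay within 0.5 of 0 for 24 of them. The exceptions were CNOT3, CNOT7 and SMG6.

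Not all of the 12 calls held when an array was left out, and for some genes it mattered which array that was. UPF2, CNOT4, EDC3 and DIS3 passed without any single array. EXOSC5, LSM4 and UPF1 missed the threshold whichever array was left out, with adjusted p of 0.083 to 0.0921 for EXOSC5, 0.0713 to 0.123 for LSM4 and 0.0623 to 0.0949 for UPF1. EXOSC8 passed without replicate 2 of the TARBP2 arrays and missed without any other array (0.0856 to 0.132). UPF3A and PAN2 passed without replicate 2 of the GFP arrays and missed without any other array (0.0561 to 0.0696 for UPF3A and 0.0567 to 0.106 for PAN2). CNOT2 passed without replicate 1 of the TARBP2 arrays and PARN without replicate 1 of either group, with adjusted p of 0.0828 to 0.091 and 0.0554 to 0.0609 in the remaining cases. Without 1 array the number of decay genes that fell was 3 or 4 in place of 9, and the number of all detected probes that changed was 4595 to 5780 in place of 8917.

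The median log2 change of neighbouring genes differed along the chromosomes, and some decay genes lie in stretches where it was far from 0. Over windows of the 50 nearest named genes on a chromosome this median ran from -0.42 to 0.84 in the whole table. It ran from -0.32 to 0.70 over the 39 decay genes, and was beyond 0.2 in size for 13 of them. CNOT4, on chromosome 7, lies among neighbours with a median of 0.70, and UPF2, on chromosome 10, among neighbours with a median of 0.42. With those medians removed, the log2 change of CNOT4 was 0.78 ± 0.17 (SE, adjusted p = 0.0159) and that of UPF2 was 0.42 ± 0.07 (SE, adjusted p = 0.00684). Window medians were treated as fixed, so each SE and adjusted p after removal leaves out their uncertainty. EDC3, EXOSC5 and EXOSC8 lie among neighbours with medians of -0.02, 0.01 and 0.0023, so their changes hardly moved. Of the 12 changed genes, 11 had a window median of the same sign as their own change. Removal took PAN2 from -0.57 to -0.39, PARN from -0.48 to -0.34 and DIS3 from -0.60 to -0.47. UPF3A went from -0.42 to -0.25, UPF1 from -0.35 to -0.25 and LSM4 from -0.33 to -0.27. CNOT2 no longer passed (-0.32, adjusted p = 0.0587) and the other 11 changed genes did. UPF3B, among X-chromosome neighbours with a median of -0.32, had a log2 change of 0.46 ± 0.07 (SE) after removal and then passed (adjusted p = 0.00637), as did EXOSC4. That fit holds 1 probe per gene, and a fit of 1 probe per gene with no medians removed had 4 decay genes that rose and 11 that fell. With window medians removed, 5 rose and 9 fell: UPF3B and EXOSC4 were gained, and LSM7, CNOT1 and CNOT2 were lost.

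**Figure D4:**
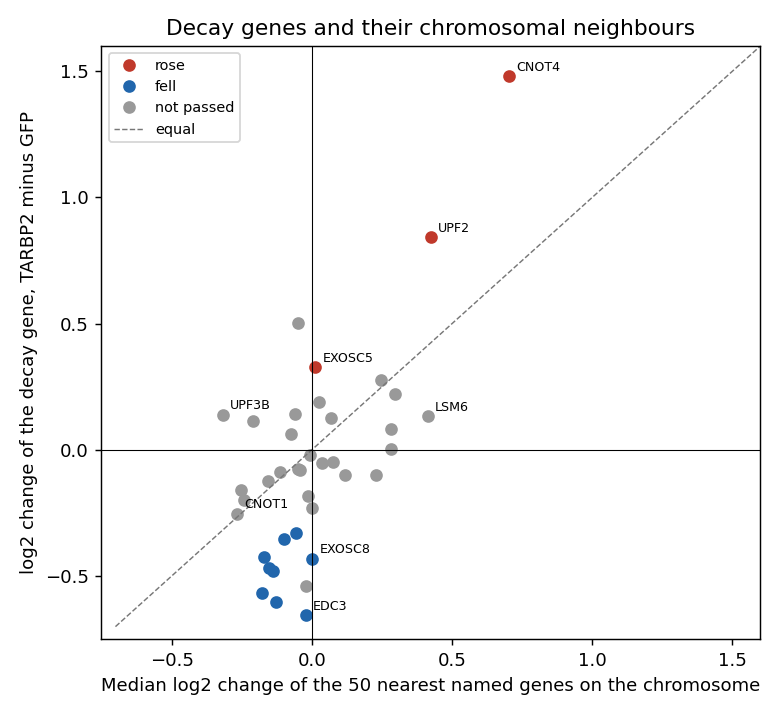
The log2 change of each of 39 decay genes (vertical axis) is plotted against the median log2 change of its 50 nearest named neighbours (horizontal axis), both for TARBP2 minus GFP arrays. The dashed line marks equal values. CNOT4 and UPF2 have the neighbours with medians of 0.70 and 0.42, and the genes that fell lie below the line among neighbours between -0.18 and 0.0023.

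The promoters of the 2 genes with the largest rise and the 2 with the largest fall are shown to let their sequence be set beside the direction of change. Each is the 250 bases before the gene's start on the sense strand, from RefSeq on GRCh38.p14. Capitals mark 5 short motifs searched on both strands, which are CCAAT (the CCAAT box), GGGCGG (the Sp1 GC box), CCGGAA (ETS factors), TATAAA (the TATA box) and TGACG (the core of the cAMP response element, CRE). CNOT4 lies at chr7:135510103-135510352, UPF2 at chr10:12043171-12043420, EDC3 at chr15:74696025-74696274 and DIS3 at chr13:72781901-72782150, all on the minus strand.
CNOT4: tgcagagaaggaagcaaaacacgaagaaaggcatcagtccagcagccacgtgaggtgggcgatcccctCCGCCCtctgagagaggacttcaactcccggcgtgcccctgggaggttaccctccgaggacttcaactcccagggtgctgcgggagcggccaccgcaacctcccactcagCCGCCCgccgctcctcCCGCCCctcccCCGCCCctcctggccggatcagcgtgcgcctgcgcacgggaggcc
UPF2: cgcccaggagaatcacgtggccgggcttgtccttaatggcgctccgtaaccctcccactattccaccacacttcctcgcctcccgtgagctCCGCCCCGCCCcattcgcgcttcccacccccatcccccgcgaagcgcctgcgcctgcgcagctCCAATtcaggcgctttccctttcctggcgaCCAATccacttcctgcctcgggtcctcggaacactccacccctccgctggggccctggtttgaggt
EDC3: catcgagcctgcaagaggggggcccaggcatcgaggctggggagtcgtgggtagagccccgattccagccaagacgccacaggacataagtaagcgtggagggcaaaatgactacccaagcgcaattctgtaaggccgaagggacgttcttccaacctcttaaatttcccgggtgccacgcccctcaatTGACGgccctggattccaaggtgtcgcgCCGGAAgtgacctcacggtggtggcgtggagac
DIS3: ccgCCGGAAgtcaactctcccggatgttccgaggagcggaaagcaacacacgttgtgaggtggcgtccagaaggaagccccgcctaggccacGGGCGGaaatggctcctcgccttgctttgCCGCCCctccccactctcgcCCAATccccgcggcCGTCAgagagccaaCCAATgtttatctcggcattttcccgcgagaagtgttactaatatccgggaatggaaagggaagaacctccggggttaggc

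The GC content of these windows was 68.8% for CNOT4, 66% for UPF2, 60% for EDC3 and 60.4% for DIS3. The CNOT4 window held 4 Sp1 boxes and none of the other motifs. The UPF2 window held 2 Sp1 boxes and 2 CCAAT boxes, the EDC3 window 1 ETS motif and 1 CRE core, and the DIS3 window 2 CCAAT boxes, 2 Sp1 boxes, 1 ETS motif and 1 CRE core. No TATA motif was found in any of the 4. Promoter windows were at hand for 42 of the 48 decay genes, with a median GC content of 64%, against 58% over 27305 genes. An Sp1 box was present in 33 of the 42 (78.6%), against 42.3% of all windows, and a TATA motif in 1 (2.38%), against 11.1%. A CCAAT box was present in 17 (40.5% against 33.0%), an ETS motif in 10 (23.8% against 14.8%) and a CRE core in 16 (38.1% against 21.7%). Among the 12 genes that changed, 10 had an Sp1 box, 7 a CCAAT box, 5 a CRE core, 4 an ETS motif and 1 a TATA motif. These are counts of letters, and the part of the higher GC content in these shares was not tested.

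The authors' deposited table gives 1 log ratio of TARBP2 over GFP per transcript, and no value per array. Its scale shrinks changes at low intensity: CNOT4 had 0.66, against 1.06 as log2 of the authors' quantile-normalized values. At high intensity it did not, as for LSM2, with 0.20 against 0.19. The signs of the 39 measured decay genes in the authors' deposited table are those found here, which the way probes were tied to transcripts fixes. The authors' deposited table classes 12 of the 41 transcripts of these probes as down-regulated (29.3%), where 21.5% of transcripts of named genes on detected probes and 8.44% of all transcripts have that class. These 12 belong to the 9 genes that fell, UPF3A by both transcripts, and to CNOT1 and PATL1, which did not pass here. For the genes with no tied probe, the authors' deposited table lists log ratios of 0.39 for CNOT8 and 0.31 for CNOT6L, which are deadenylase subunits, and 0.25 for EXOSC9, a ring subunit of the exosome. The authors' deposited table lists 0.10 for LSM3, -0.03 for LSM5, 0.01 for the nuclear exonuclease XRN2, -0.04 for EXOSC3 and -0.09 for SMG1, the kinase that phosphorylates UPF1. Further transcripts of measured genes in the authors' deposited table had log ratios of 0.50 for UPF2, 0.33 for CNOT4, 0.10 for EXOSC10, 0.05 for CNOT1 and 0.01 for CNOT7. For UPF2 and CNOT4 the sign was that of the tied transcript, and for CNOT1 it was the opposite one. None of these 13 untied transcripts was classed as down-regulated, and no error can be given for them.

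Other genes of RNA decay were taken from a list of 62 cofactors, exon junction proteins and RNA-binding adaptors, of which 55 could be tested. In this list 6 rose and 11 fell (30.9% changed, where 44.8% of all named genes did), with a median log2 change of -0.04. NUDT16, a Nudix hydrolase with decapping activity, had levels of 7.13 and 7.11 on the TARBP2 arrays, against 8.43 and 8.50 on the GFP arrays. It fell by 1.34 ± 0.08 (SE, adjusted p = 0.000703), or 2.54-fold, with no overlap. The exon junction paralogs went in opposite directions: MAGOH rose by 0.55 ± 0.08 and MAGOHB fell by 1.06 ± 0.13 (SE, adjusted p = 0.00718 and 0.00463). MAGOH had levels of 10.18 and 10.10 on the TARBP2 arrays, against 9.61 and 9.57 on the GFP arrays. MAGOHB had levels of 5.63 and 5.95 on the TARBP2 arrays, against 6.90 and 6.81 on the GFP arrays.

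LSM8, which replaces LSM1 in the nuclear LSM ring, had levels of 8.21 and 8.03 on the TARBP2 arrays, against 7.22 and 7.46 on the GFP arrays, and rose by 0.77 ± 0.12 (SE, adjusted p = 0.00903). Its neighbours on chromosome 7 had a median of 0.47, and once that was subtracted it no longer passed (0.31, adjusted p = 0.08). Leaving out TARBP2 replicate 1 also left it short of the threshold, at an adjusted p of 0.0591. LSM14A, a P-body protein that binds DDX6, fell by 0.51 ± 0.07 (SE), with levels of 10.66 and 10.69 on the TARBP2 arrays, against 11.18 on each GFP array. RBM7, an adaptor of the nuclear exosome, rose by 0.79 ± 0.11 (SE), with levels of 10.17 and 10.28 on the TARBP2 arrays, against 9.55 and 9.32 on the GFP arrays. With TARBP2 replicate 2 left out, RBM7 had an adjusted p of 0.051.

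Among adaptors that bring the deadenylase to chosen messages, ZFP36L1, which binds AU-rich elements, had levels of 11.64 and 11.68 on the TARBP2 arrays, against 12.39 and 12.45 on the GFP arrays. It fell by 0.76 ± 0.08 (SE, adjusted p = 0.00292). RC3H1, the stem-loop binding protein Roquin, had levels of 5.55 and 5.76 on the TARBP2 arrays, against 4.91 and 4.82 on the GFP arrays, where it was not above background on either array. Over the floor used here it was 1.48-fold higher on the TARBP2 arrays (adjusted p = 0.00542), but the size depends on the scaling. The log2 change of 0.79 became 0.44 on the authors' quantile-normalized values, 0.41 without background correction and 0.42 with an offset of 50. RC3H1 met the detection filter only through the TARBP2 arrays, and it also passed with no detection filter (adjusted p = 0.00698). The remaining genes of the list that rose were NOCT and ZFP36L2, and those that fell were CNOT9, DIS3L, PELO, CASC3, DHX34, STAU2 and ZFP36. The 3 probes of STAU1, which starts Staufen-mediated decay, disagreed: the one of highest level did not pass (0.15), another rose (0.28, adjusted p = 0.0472) and the dimmest fell (-0.58, adjusted p = 0.0241).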

How the data were processed

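RNA of MDA-231 cells was hybridised to 4 Illumina BeadChip arrays, 2 per plasmid, grouped by the sample labels. For 47323 probes the authors deposited a linear intensity before normalization, and per the file headers a detection p-value stands beside it. The authors also deposited quantile-normalized intensities, and a table of 1 log2-type log ratio and 1 other value, a class, per transcript accession. The submitters' processing notes name lumi. No version of it was at hand. Accessions classed down are those with a log ratio below -0.2.

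Probes were tied to accessions where the authors' log ratio equalled, to within 1e-09, the TARBP2 minus GFP difference of group means of 1 scaled asinh of the quantile-normalized values, for 1 probe only. This held for 33113 of 39747 accessions (83.3%), against at most 14 in shifted tables. Of accessions simulated from single probes with the same asinh, 99.95% were tied to the right probe. That simulation shows only that values of single probes can be told apart. Accessions were named through RefSeq on GRCh38.p14. Accessions that fitted no probe or more than 1, or that reached the same probe as another accession, were left untied. Whether they were made from several probes was not tested.

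Intensities were processed with neqc (offset 16) and tested with limma 3.58.1 under R 4.3.3 (2-sided, 2 residual and 2.81 prior degrees of freedom, Benjamini-Hochberg over the 22123 probes detected, at p under 0.05, on 2 or more arrays). The fit was also run on simulated data, whose spread was drawn from the prior that limma had fitted to these arrays. That run cannot tell whether the spread between the real arrays is technical. A gene was counted by its detected probe of highest mean level. Where 1 group was below background on every array, the fold is given as at least the bright group's mean over a floor, which on each dim array is the lowest level of a detected probe or, if higher, the level of the probe in question. No scan or slide data were at hand, so no batch was tested, and the number of arrays limits the precision. No probe sequences were used. Results on 1 marker gene are not reported here. The decay genes and lists were chosen with earlier results of these data known. The 30 genes chosen by rule are TARBP2, those that changed, the 2 of highest mean level per complex among those that did not pass, and 8 others of smallest p. Other genes, markers apart, were named after their values were seen. Alternatives covered normalization, background correction, offset, the detection filter, each array left out, the replicate block, 1 probe per gene, and window medians removed in the fit of 1 probe per gene.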

Additional observations from a re-analysis of the deposited data

How the results depend on the processing

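Across 12 alternatives, the 30 genes chosen by the naming rule kept direction and side of the threshold in 314 of 359 comparisons, fell short of it in 34 and newly passed in 7. The sign turned in 4, none of them a changed gene: CNOT1 (0.0142), LSM1 (0.0313) and EXOSC1 (-0.0776) with window medians removed, and PAN3 (-0.0029) without replicate 1 of the GFP arrays, where its values without 1 array ran up to 0.127. UPF2, CNOT4, EDC3 and DIS3 passed under all 12. The number of decay genes that rose was 5 on the authors' quantile-normalized values, 6 without background correction, 5 with an offset of 50 and 5 with window medians removed, and the cause was not tested. In the first 3 of these 12 fell, so that 17 or 18 decay genes changed in place of 12. With 1 probe per gene 4 rose and 11 fell, as with detection on all 4 arrays. Leaving out 1 array, which leaves fewer samples, gave 3 to 4 decay genes that fell (9 with all arrays), 2 that rose in each case (3 with all arrays), 3 to 4 other decay genes that rose (6) and 4 to 5 that fell (11), and 4595 to 5780 changed probes (8917). The lone array left in a group was assumed to vary like the other group. Other decay genes that fell numbered 7 without a detection filter, where 47323 probes were tested. The same-numbered arrays deviated with a correlation of 0.0062 over the detected probes. With 1 difference per group, this cannot tell whether they share a culture or a batch. With the replicate block, 4 decay genes rose and 7 fell, 7 other decay genes fell and 8067 probes changed.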
